A study of Mus musculus with 2 samples.

Results

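Genes for mitosis and chromosome segregation were compared between primitive and maturing haematopoietic stem cells (HSC) from mouse bone marrow. The group holds 46 named genes, taken by their symbol in the array annotation. Of these, 45 had probe sets with that single symbol, 81 probe sets in all, out of 12393 genes on the array. Ccnb1 was not analysed here. Each population was measured on 1 Affymetrix array. There were therefore no replicates, the spread between samples is unknown, and no test was made. Per the labels, both populations were untreated cells sorted by flow cytometry after 30 min in culture. Total RNA was reverse transcribed with poly(A) priming, and the cDNA was amplified, size fractionated and cloned in lambda phage, and the library inserts were labelled. An array signal therefore describes a cloned cDNA library made from sorted cells. The sorted surface phenotypes, the number of animals pooled and the strain, sex and age of the mice are not given in these sources. As in any bulk sample, fewer dividing cells and less of a transcript per cell cannot be told apart.

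Entry into mitosis is driven by the kinase CDK1 bound to A- and B-type cyclins. Condensin and topoisomerase II then compact and disentangle the chromosomes, kinetochores attach them to the spindle, and the checkpoint holds back the anaphase-promoting complex (APC/C) until all are attached. Most of these transcripts accumulate in G2 and M phase, and the genes are common markers of proliferation. HSC in adult marrow are known to divide rarely.

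Signals were MAS5 intensities, which carry no unit. Values up to a floor of 441.05, the median of all non-control probe sets on both arrays, were treated as not measured. Ratios are log2 of primitive over maturing signal, from the brightest probe set of a gene. Where 1 array lay below the floor, the ratio used the floor and is a bound, written as "at least". Of the 45 genes, 38 passed the floor on at least 1 array. Ccnf, Cdc25c, Ndc80, Nuf2, Tpx2, Kif20a and Ect2 lay below it on both. Over 1318 genes with more than 1 probe set above the floor on both arrays, probe set ratios had a pooled SD of 0.82 (log2) about their gene's mean. A single ratio of 2-fold lies close to that spread, which does not cover bounds.

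Of 6 measured genes of chromosome structure, 5 were lower in primitive cells, while the rest of the mitotic programme was mixed. Of the 38 measured genes, 24 had the higher signal in maturing HSC, where 47.3% of all measured genes did, and 14 in primitive HSC. At 4-fold, 4 genes were higher in maturing cells and 1 in primitive HSC. These are 10.5% and 2.63% of the measured members, against 4.69% and 3.45% of all 8852 measured genes, 8.13% in either direction. The 4 were the spindle gene Nusap1, the topoisomerase gene Top2a, the proliferation marker gene Mki67 and the condensin gene Ncapd2, and the 1 was the centromeric histone gene Cenpa. After lowess or quantile normalization the split was 2 to 1, and after scaling to the hybridisation controls it was 10 to 0. The 10 include Cdc20, at -2.54, for which another probe set became the brightest under the scaling. That scaling also moved the median log2 ratio of all measured genes, to -0.74. The shares of all genes at least 4-fold apart were not counted in these other settings. At 2-fold the counts were 13 and 3, or 34.2% and 7.89%, against 17.6% and 15.6% of all measured genes. The median log2 ratio of the measured members was -0.62, against 0.07 over all measured genes. A gene that passed the floor on 1 array only had to differ, so these counts and medians are descriptions. Over the 19 members above the floor on both arrays the median was -0.26, against 0.09 for all such genes.

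**Figure D1:**
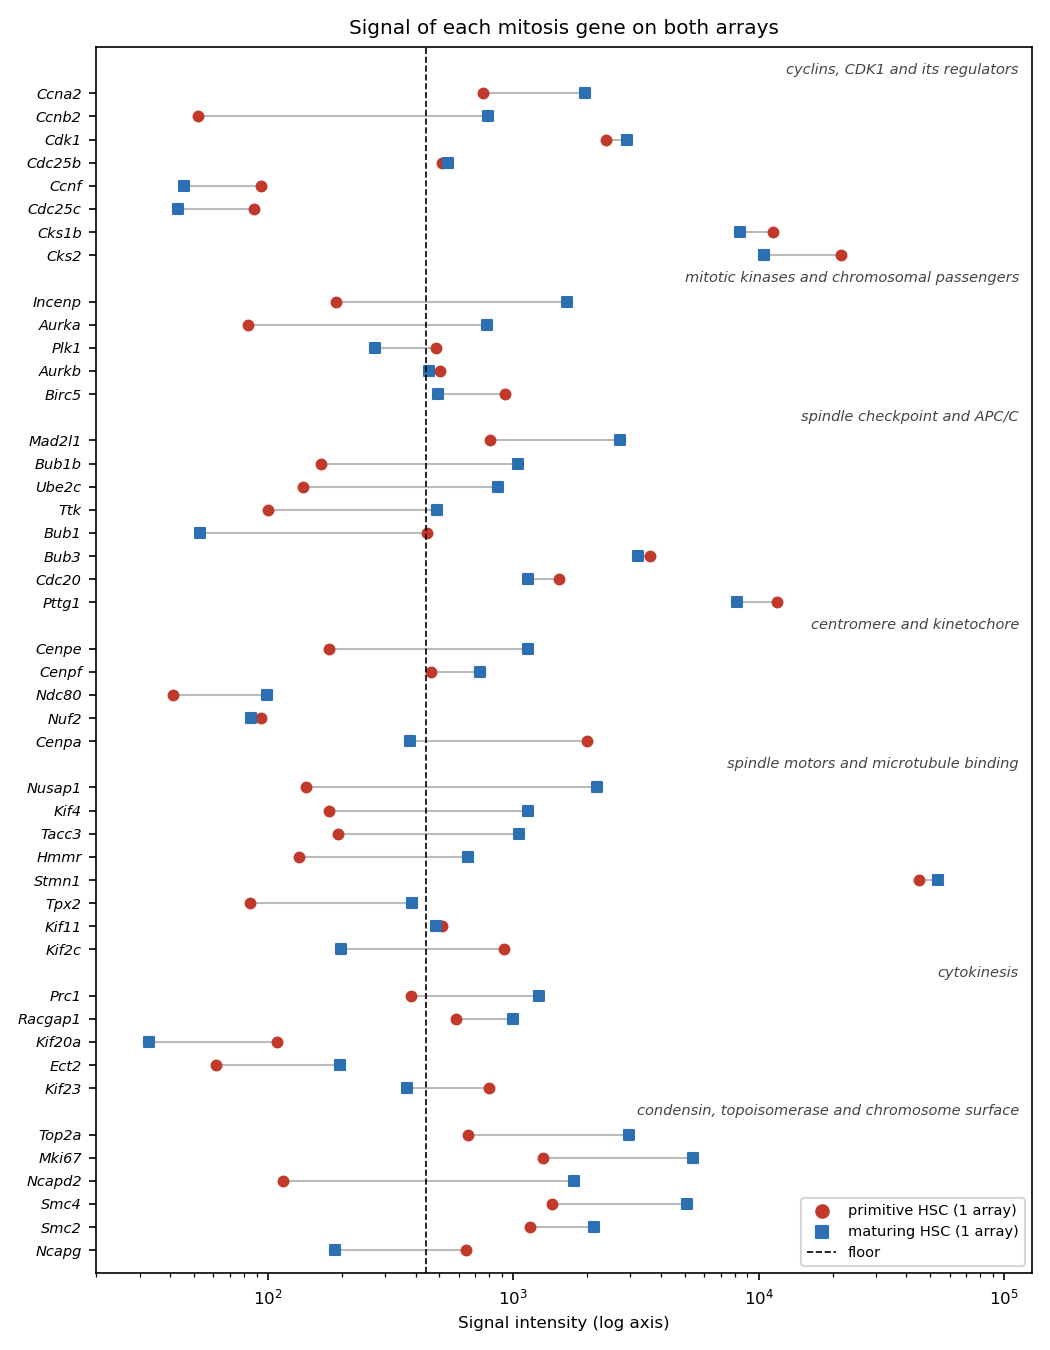
Signal of the 45 genes on the primitive array (circles) and the maturing array (squares), on a log axis, grouped by role and sorted by ratio within a role; the dashed line is the floor at 441.05 and each point is 1 array. Condensin, Top2a and Mki67 lie to the right on the maturing array except for Ncapg, while Cks1b, Cks2 and Pttg1 lie to the right on the primitive array.

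**Figure D2:**
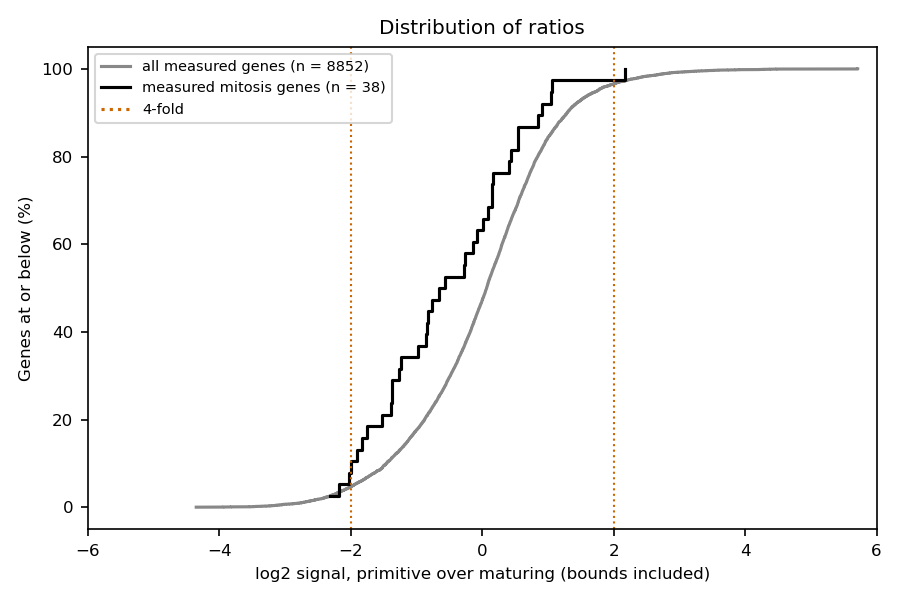
Cumulative share of genes (vertical axis, percent) by log2 ratio of primitive over maturing signal, bounds included, for 38 measured mitosis genes (black) and 8852 measured genes (grey), with dotted lines at 4-fold. The black curve lies to the left of the grey one from about the left 4-fold line to the right one, with 4 mitosis genes at or beyond 4-fold to the left and 1 to the right.

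Promoter sequence was a feature that did not enter the choice of members. Promoters of G2/M genes often hold the CCAAT box, bound by NF-Y, and the cell cycle genes homology region (CHR), whose core is TTTGAA and which is read by the DREAM and MuvB complexes. RefSeq windows of 300 bases (250 before and 50 after the annotated start, GRCm38.p6) were matched by symbol for 37 of the 45 genes, 40 windows in all. CCAAT, on either strand, was present in 32 of the 40 windows (80.0%), against 37.4% of all 32851 windows, and at least 2 copies were present in 21 (52.5%), against 11.7%. TTTGAA, on either strand, was present in 30 of the 40 windows, against 17.9%, and both motifs in 28 (70.0%), against 6.95%. Copies were counted also where they overlapped. Bub3, Ect2 and Prc1 each have 2 windows that share sequence.

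The motifs were common among genes of either direction. Both were present in 16 of 21 windows of genes higher in maturing cells (76.2%) and in 9 of 14 windows of genes higher in primitive cells (64.3%). Below are the 250 bases before the start of the 5 genes that were at least 4-fold apart, 5′ to 3′ on the coding strand, with CCAAT and TTTGAA, or their reverse complements, in capitals.
Top2a, chr11:99024190-99024439, minus strand: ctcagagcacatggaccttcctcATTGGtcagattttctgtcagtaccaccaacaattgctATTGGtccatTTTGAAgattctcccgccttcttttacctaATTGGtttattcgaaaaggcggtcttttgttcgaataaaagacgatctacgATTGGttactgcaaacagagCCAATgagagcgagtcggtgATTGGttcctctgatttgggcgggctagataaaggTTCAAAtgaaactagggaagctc
Mki67, chr7:135716380-135716629, minus strand: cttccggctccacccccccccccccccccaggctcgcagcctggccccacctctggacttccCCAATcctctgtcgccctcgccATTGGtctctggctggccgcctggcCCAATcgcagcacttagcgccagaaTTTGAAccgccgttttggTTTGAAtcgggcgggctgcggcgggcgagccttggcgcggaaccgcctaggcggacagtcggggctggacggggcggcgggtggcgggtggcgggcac
Ncapd2, chr6:125191587-125191836, minus strand: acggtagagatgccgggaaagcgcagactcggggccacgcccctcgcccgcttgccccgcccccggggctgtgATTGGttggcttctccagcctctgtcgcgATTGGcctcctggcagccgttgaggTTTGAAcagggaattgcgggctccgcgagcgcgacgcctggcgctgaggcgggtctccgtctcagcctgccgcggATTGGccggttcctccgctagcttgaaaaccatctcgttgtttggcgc
Nusap1, chr2:119618048-119618297, plus strand: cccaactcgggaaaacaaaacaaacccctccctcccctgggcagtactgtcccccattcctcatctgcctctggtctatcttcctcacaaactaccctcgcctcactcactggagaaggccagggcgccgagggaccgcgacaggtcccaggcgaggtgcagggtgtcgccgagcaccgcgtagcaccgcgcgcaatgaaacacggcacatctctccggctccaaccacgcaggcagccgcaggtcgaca
Cenpa, chr5:30666636-30666885, plus strand: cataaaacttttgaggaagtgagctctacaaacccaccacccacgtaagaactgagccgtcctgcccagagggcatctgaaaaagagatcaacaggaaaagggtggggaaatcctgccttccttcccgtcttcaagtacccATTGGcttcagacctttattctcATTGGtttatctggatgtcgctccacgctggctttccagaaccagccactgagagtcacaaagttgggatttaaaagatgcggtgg
Top2a held 6 copies of CCAAT and 2 of TTTGAA, Mki67 held 3 and 2, and Ncapd2 held 3 and 1. Cenpa, the gene with the opposite ratio, held 2 copies of CCAAT before its start and 1 of TTTGAA within the 50 bases after it. Nusap1 held neither motif in its 300 bases. A match of letters is not a bound site.

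**Figure D3:**
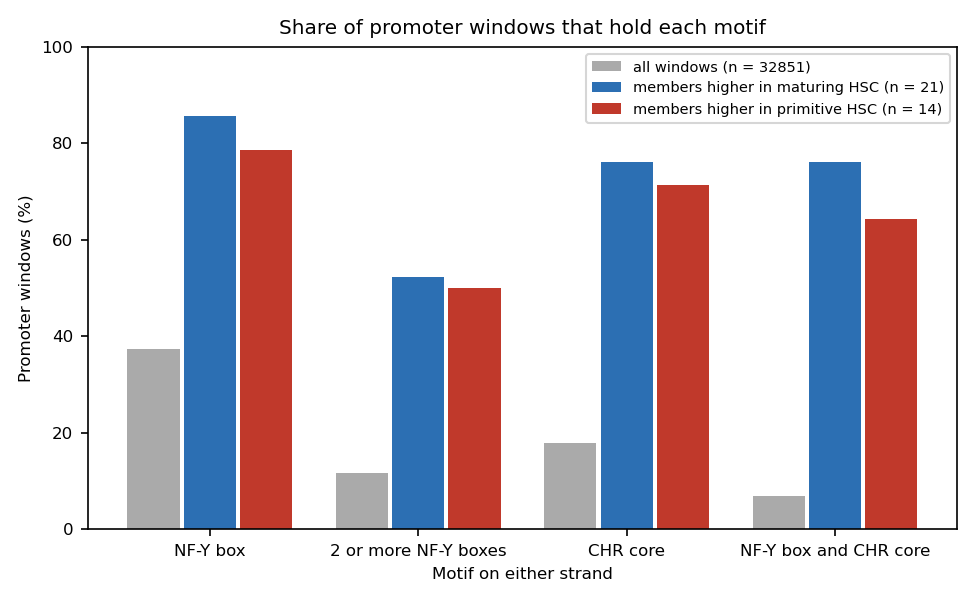
Share of 300-base promoter windows (percent) that hold an NF-Y box, at least 2 of them, a CHR core, or both motifs, for all 32851 windows (grey), 21 windows of mitosis genes higher in maturing cells (blue) and 14 of those higher in primitive cells (red). Both colours stand above grey for each motif, at 76.2% and 64.3% against 6.95% where both motifs are required.

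Chromosome structure genes were the role with the lowest median ratio, -1.92 over 6 measured genes, 5 of which were higher in maturing cells. Medians of all roles hold bounds, and this one lies between the bound of Ncapd2 and the brightest probe set of Smc4. Over the 4 genes of the role above the floor on both arrays it was -1.93. Top2a, whose product passes DNA strands through each other, read 653 in the primitive and 2971 in the maturing library, a log2 ratio of -2.19 or 4.55-fold. Only 2.44% of the 5525 genes measured on both arrays had a lower ratio. Its second probe set read 85.9 and 102.2, below the floor on both arrays. Mki67, which coats mitotic chromosomes, read 1322 and 5415, a ratio of -2.03. In condensin, the ATPase subunit gene Smc4 read 1435 and 5114 (-1.83), and its partner Smc2 read 1174 and 2137 (-0.86). The 3 probe sets of Smc4 all pointed toward maturing HSC, from -1.83 to -0.47. Ncapd2, a regulatory subunit of condensin I, read 115.1 and 1767, at least 4.01-fold higher in maturing cells and so just past the threshold. Ncapg, of the same complex, went the other way, with 644 and 187.9, at least 1.46-fold higher in primitive cells. Its second probe set lay below the floor on both arrays.

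The cyclin and CDK1 genes had a median log2 ratio of -0.18 over 6 measured genes, 4 of them higher in maturing cells. For Ccnb2 only a bound is known, and the median holds it at that bound. Ccna2, the cyclin of S and early M phase, read 755 in the primitive and 1958 in the maturing library (-1.37), and its second probe set gave -1.01. Ccnb2 read 52.1 and 792, at least 1.80-fold higher in maturing cells. Its partner kinase gene Cdk1 read 2383 and 2895, a ratio of -0.28. The CDK1-activating phosphatase gene Cdc25b was level, with 513 and 544. The phosphatase gene Cdc25c and the F-box cyclin gene Ccnf were below the floor on both arrays. Cks1b and Cks2 encode small subunits that bind CDK1 and were higher in primitive cells. Cks2 read 21646 and 10481 (1.05), with its second probe set at 0.71. Cks1b read 11452 and 8424 (0.44), but its second probe set gave -0.07 from 6550 and 6889. Ccna2 was thus lower and Cks2 higher in primitive cells, each with both probe sets on 1 side. Cdk1 itself, from 1 probe set, lay at -0.28, within the spread between probe sets of a gene. Lowess, quantile normalization and scaling to the hybridisation controls gave 0.55, 0.55 and 0.07 for Cks2. In the same order they gave -1.25, -1.21 and -2.35 for Ccna2.

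Among the mitotic kinases and the chromosomal passenger complex, 3 of 5 genes were higher in primitive cells and 2 in maturing HSC. The passenger scaffold gene Incenp read 189 and 1654, at least 3.75-fold higher in maturing cells, while its other 2 probe sets were below the floor on both arrays. Aurka, the spindle pole kinase gene, read 83.0 and 783, at least 1.77-fold higher in maturing cells. Birc5 (survivin), which docks the passenger complex at centromeres, read 924 and 495 (0.90), higher in primitive cells. The passenger kinase gene Aurkb was near the floor on both arrays, with 504 and 455. Plk1, a kinase of mitotic entry and exit, read 487 and 274, at least 1.10-fold higher in primitive cells. Incenp, Aurkb and Birc5 encode parts of 1 complex, and their ratios lay on both sides of 0.

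By the brightest probe set, 4 of 8 spindle checkpoint and APC/C genes were higher on each side, with a median of -0.07. The 4 on the primitive side were Bub1, Bub3, Pttg1 and Cdc20, and the last has probe sets on both sides. Mad2l1, the inhibitor of the APC/C at unattached kinetochores, read 807 in the primitive and 2728 in the maturing library (-1.76). Bub1b (BubR1), of the same inhibitory complex, read 165.0 and 1045, at least 2.37-fold higher in maturing cells. Their partner gene Bub3 was level at 3624 and 3235 (0.16), with a second measured probe set at -0.51. The checkpoint kinase gene Ttk read 100.3 and 488, at least 1.11-fold higher in maturing cells, and Bub1 read 444.5 and 52.8, a bound of only 1.01-fold. Ube2c, the ubiquitin-conjugating enzyme of the APC/C, read 139.0 and 868, at least 1.97-fold higher in maturing cells. Pttg1 (securin), the separase inhibitor that the APC/C destroys, read 11904 and 8131 (0.55), and its 3 probe sets all pointed toward primitive HSC, up to 1.19. The activator gene Cdc20 had probe sets that contradicted each other. The brightest read 1531 and 1152 (0.41), and another read 287 and 1802, at least 4.09-fold higher in maturing cells. No direction is given for Cdc20 beyond its place in that count.

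At the centromere, Cenpa, the histone H3 variant that marks it, read 1990 in the primitive and 381 in the maturing library. It was at least 4.51-fold higher in primitive cells, from its only probe set, a set designed against several transcripts of the gene. The kinetochore motor gene Cenpe went the other way, with 177.4 and 1151, at least 2.61-fold higher in maturing cells. Cenpf, a large kinetochore protein, read 462 and 732 (-0.66), and its second probe set gave a bound on the same side. Ndc80 and Nuf2, which form the microtubule-binding complex, were below the floor on both arrays, at 40.9 and 99.6 and at 94.1 and 85.0.

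Of 7 measured spindle genes, 5 were higher in maturing cells, with a median of -0.57, which is the bound of Hmmr. Nusap1, which bundles spindle microtubules, read 143.5 and 2202, at least 4.99-fold higher in maturing cells. Nusap1, Ncapd2 and Ccnb2 were all below the floor on the primitive array, so the order of their bounds is set by the maturing signal alone. The second probe set of Nusap1 read 372 and 378, just below the floor and level. The chromokinesin gene Kif4 read 177.7 and 1148, at least 2.60-fold higher in maturing cells. Tacc3, which stabilises kinetochore fibres, read 192.6 and 1058, at least 2.40-fold higher there, and Hmmr read 134.4 and 655, at least 1.48-fold. Tacc3 and Hmmr each had a second measured probe set on the same side. The bipolar spindle motor gene Kif11 was level at 514 and 483 (0.09). Stmn1 (stathmin), a microtubule destabiliser, was bright on both arrays at 44939 and 53719 (-0.26), with its second probe set at 0.31. Lowess, quantile normalization and scaling to the hybridisation controls gave -1.13, -1.14 and -1.23 for Stmn1. Kif2c, a microtubule-depolymerising kinesin, read 917 and 197.9, at least 2.08-fold higher in primitive cells, and 1 of its 4 measured probe sets pointed the other way. Tpx2, the activator of Aurora A, was below the floor at 84.8 and 388.

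Of 5 cytokinesis genes, 3 were measured. Prc1, which bundles the central spindle, read 383 and 1274, at least 2.89-fold higher in maturing cells, with its other probe set at -0.35. Racgap1 read 587 and 1002 (-0.77). Its partner in centralspindlin, Kif23, read 795 and 370, at least 1.80-fold higher in primitive cells, with another measured probe set on that side. Kif20a and Ect2 were below the floor on both arrays.

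Most differences toward maturing HSC were bounds. A total of 13 members were above the floor on the maturing array only (34.2% of those measured, against 18.5% of all measured genes), and 6 on the primitive array only (15.8%, against 19.1%). Of the 15 members with more than 1 measured probe set, 10 had all of them on 1 side and 5 did not, namely Cks1b, Bub3, Cdc20, Kif2c and Stmn1. Over all 57 measured probe sets of the members, 35 were higher in maturing and 22 in primitive HSC, with a median of -0.35.

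**Figure D4:**
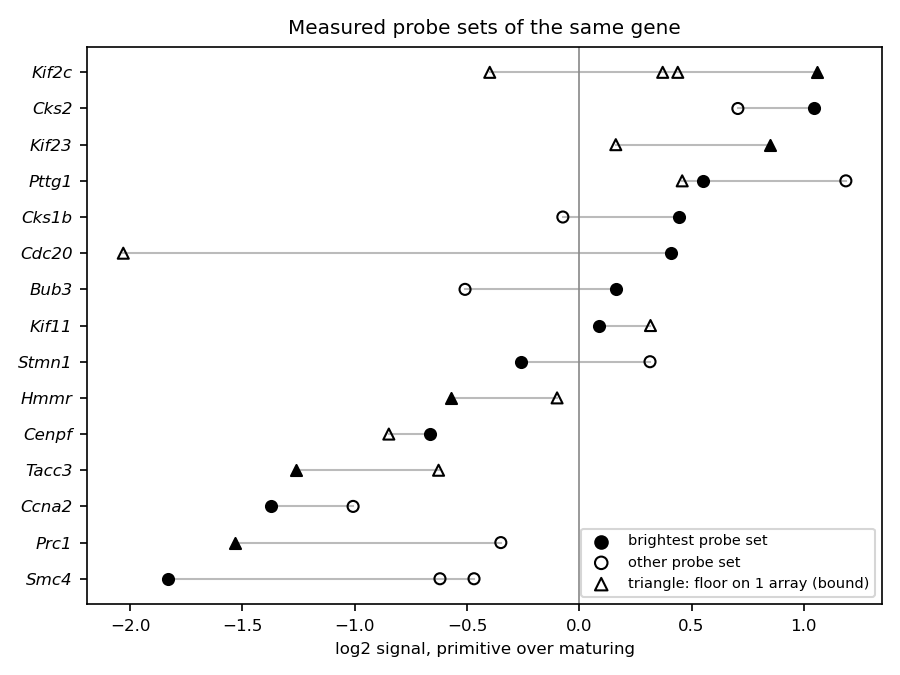
Log2 ratio of primitive over maturing signal (horizontal axis) for each measured probe set of the 15 genes with more than 1; filled symbols are the brightest probe set, and triangles are bounds with 1 array below the floor. The spread is widest for Cdc20, from at least 4.09-fold toward maturing HSC to 0.41 toward primitive HSC.

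Ratios were also set beside the length of the encoded protein. Members were put in classes by general knowledge of their proteins, with no length table used. The 13 measured genes for proteins under 400 residues had a median log2 ratio of 0.15, with 7 higher in primitive cells. That median was -0.81 after scaling to the hybridisation controls, where the median of all measured genes was -0.74. It was -0.39 when probe sets named as able to bind several transcripts were left out, beside 0.04 for all measured genes. The 15 measured genes for proteins of 800 residues or more had a median of -1.24, with 11 higher in maturing cells. The 10 measured genes in between had -0.67. The ranges of the classes overlapped, from -1.76 to 2.17 for short and from -2.19 to 0.85 for long proteins. Length classes were not made for other genes, so nothing particular to the members can be read from these medians. The short class holds Cks1b, Cks2, Birc5, Pttg1 and Cenpa on the primitive side, but also Mad2l1, Ube2c, Ccnb2 and Aurka on the maturing side. The long class holds Top2a, Mki67, Smc4, Ncapd2 and Incenp, but also Kif23 and Ncapg on the primitive side. The libraries were size fractionated, per the labels' protocols, and the part of transcript length in these ratios was not tested.

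**Figure D5:**
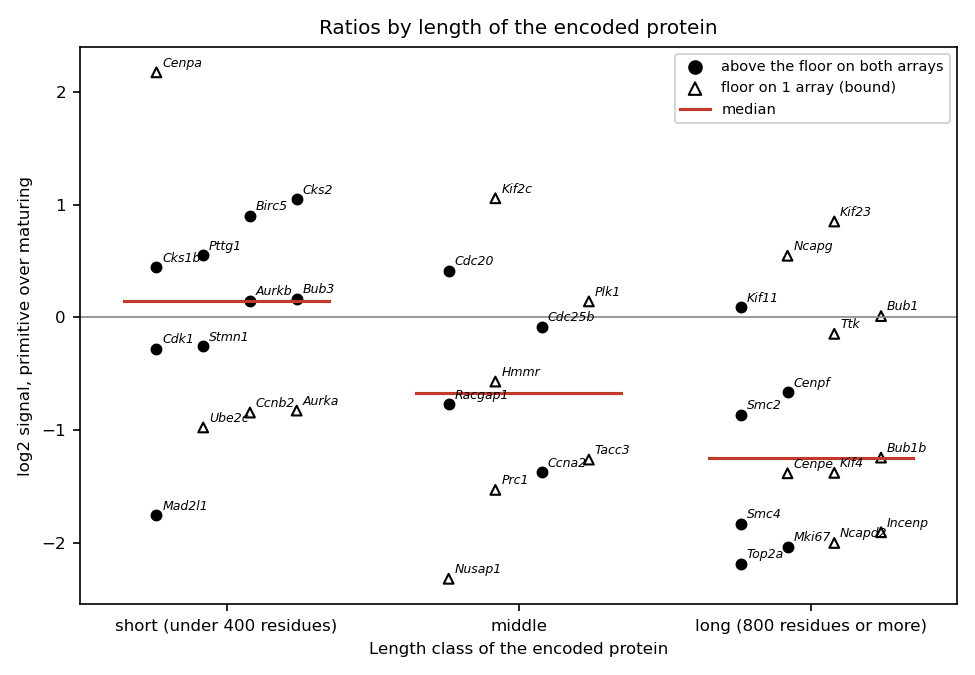
Log2 ratio of primitive over maturing signal (vertical axis) for the 38 measured genes by length class of the protein; filled circles are above the floor on both arrays, open triangles are bounds and red lines are class medians. The medians are 0.15, -0.67 and -1.24 from the short to the long class, and the classes overlap.

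Signal level was also set beside the ratio. In 4 equal classes of all measured genes by mean signal, from dimmest to brightest, the members' medians were -0.04, -0.98, -1.83 and -0.26 over 10, 11, 8 and 9 genes. The medians of all genes in the same classes were 0.08, 0.10, -0.10 and 0.12. The members thus lay lowest in the third class, which holds Nusap1, Top2a, Ncapd2, Incenp, Mad2l1 and Ccna2 as well as Cenpa and Cdc20. Mean signal was the geometric mean after flooring. For a gene above the floor on 1 array only, class and size of ratio therefore both follow from 1 signal. Such a gene in the dimmest class could not have a large ratio, so no relation of ratio to signal level can be read from these medians.

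Further genes of the same processes came from lists that do not hold the members. Of 85 on the array, 68 were measured, with a median of -0.15. Of these, 37 (54.4%) were higher in maturing cells, against 47.3% of all measured genes. Over those above the floor on both arrays the median was -0.27, beside -0.26 for the members. At 4-fold, 8 were higher in maturing cells (11.8%) and 3 in primitive HSC (4.41%), against 4.69% and 3.45% of all measured genes. Of the 4 further chromosome structure genes, 2 were at least 4-fold higher in maturing cells by the brightest probe set and 2 were level. The condensin kleisin gene Ncaph read 310 and 2123, at least 4.81-fold higher in maturing cells, and the second topoisomerase gene Top2b read 601 and 4230 (-2.81). The other measured probe set gave only -0.73 for Ncaph and -0.63 for Top2b, bounds included. The condensin II genes Ncapg2 and Ncaph2 had ratios of 0.10 and -0.02, and another probe set of Ncaph2 gave 1.06. Cohesin, which holds sister chromatids together, was mixed, with 6 of 10 genes of the cohesin and separase list higher in maturing cells and 4 in primitive cells. The last count includes Pds5a, which was level at 0.002. Stag2 read 175.9 and 3500, at least 7.94-fold higher in maturing cells. The cohesin kleisin gene Rad21 read 1105 and 4947 (-2.16), although its other measured probe sets reached -0.03. Toward primitive HSC, the cohesin gene Stag1 and the cohesin acetyltransferase gene Esco1 were at least 2.57-fold and 2.86-fold higher, and Smc1a had a ratio of 0.55. Their probe sets ranged from 0.36 to 1.36 for Stag1, from -0.15 to 1.52 for Esco1 and from -1.18 to 0.55 for Smc1a. Cdc16, a subunit of the APC/C, was at least 4.57-fold higher in maturing cells, the kinetochore gene Cenpq at least 5.23-fold, the mitotic kinase gene Nek9 at least 6.24-fold and the kinase gene Pbk 5.04-fold. Toward primitive HSC, the abscission gene Cep55 read 3264 and 356, at least 7.40-fold higher, and the gamma-tubulin complex gene Tubgcp2 read 2496 and 429, at least 5.66-fold higher. The third gene in the primitive count is the CDK-activating phosphatase gene Cdc25a, whose brightest probe set gave 2.24. Another gave -2.67, so its direction is not settled.

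Replication genes act in the preceding S phase. The 7 measured genes of the MCM list, Mcm2 to Mcm7 and Mcm10, had a median of -2.13. Of these, 4 (57.1%) were at least 4-fold higher in maturing cells, against 4.69% of all measured genes. Mcm3 was the exception among the 7 at 0.40, with probe sets from -2.14 to 1.17. The 9 genes of the clamp loader and its partners, DNA ligase I and ribonucleotide reductase had -1.41, also with 4 (44.4%). Among these Pcna was level at -0.05, and Rrm1 gave 1.33 from its brightest probe set and -2.56 from the other. The mitosis genes had -0.62, and chromosome structure alone -1.92. With 1 array per population the difference between these groups could not be tested.

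Array-wide values bear on every ratio. All 18 hybridisation control probe sets were brighter on the primitive array, with a median log2 ratio of 0.97. Scaling to them moved the median of all measured genes from 0.07 to -0.74 and that of the members to -1.33, so the members' distance from all genes went from -0.68 to -0.60. The log2 ratio of 3′ to 5′ signal was 1.05 on the primitive and 0.69 on the maturing array for actin, and -0.49 and -0.52 for Gapdh. Of 11 stem and early progenitor markers on the array, 8 were above the floor in the primitive and 10 in the maturing library. Their summed signals were 27009 and 24630, of which Procr alone read 11572 and 1895. Their median log2 ratio was -0.41, with 5 higher in primitive and 6 in maturing cells. Procr (2.61) and Abcg2 (1.94) were at least 2-fold higher in primitive cells, and Flt3 (-2.37), Meis1 (-1.44), Hlf (-1.25) and Tek (-1.15) were so in maturing cells, bounds included. Neutrophil and monocyte markers were above the floor for 7 and 8 of 9 genes, with a summed signal of 114586 and 60690. Of the 8 measured, 5 were higher in primitive cells, and S100a8 alone read 46747 and 19525. The other 3 were higher in maturing cells, namely Mpo (-2.55, a bound), Ltf (-1.63) and Csf1r (-0.67). B cell markers were above it for 2 and 4 of 5 genes, with summed signals of 1666 and 3730. For T cells 1 and 1 of 5 were, with 9487 and 1605, of which Cd3d alone read 8674 and 44.2, and Cd3e was below the floor on both arrays. Erythroid markers were above it for 3 and 3 of 5 genes (4791 and 4067) and megakaryocyte markers for 4 and 3 of 5 (6406 and 6378). The part of such cells in the mitotic ratios was not tested.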

How the data were processed

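The data were 2 Affymetrix arrays, 1 of primitive and 1 of maturing HSC. The deposited values are signal intensities. The submitters' processing notes name MAS5, with no version in these sources, and detection calls were not used. Their 2% trimmed means were 1000.6 and 1000.4, so they had been scaled to 1 mean, which hides any difference in total RNA per cell. Of 22690 probe sets, 64 were controls; 20380 had 1 gene symbol in the platform annotation and 691 had several, which were not used. Through Entrez identifiers 20351 matched RefSeq and 0 symbols changed.

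The signals were brought to 1 common trimmed mean and floored at 441.05, and the brightest probe set stood for each of 12393 genes. Genes at least 4-fold apart were counted. The members and lists were chosen with earlier results of these data known. Every member was named, with both signals where the arrays differed at least 2-fold or probe sets disagreed, and other genes of the pathway where they were at least 4-fold apart. Some values within 2-fold were added. Protein length classes were set by hand, since no protein table was used. The steps were tested on simulated data. The alternatives tried were no rescaling, lowess (fraction 0.3), quantile normalization, centring on a median ratio of 0, scaling to the hybridisation controls, floors at percentiles 25 and 75, the median over probe sets, dropping probe sets named as able to bind several transcripts (_x_at, _s_at and _a_at), thresholds of 2-fold and 8-fold, only genes that passed the floor on both arrays, and length classes under 300 and from 1000 residues. With 1 array per population there was no test; the number of arrays limits the precision. Python 3.11.15 was used with pandas 2.3.3, numpy 2.4.6, statsmodels 0.14.6, scipy 1.17.1 and, for figures, matplotlib 3.10.9.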

Additional observations from a re-analysis of the deposited data

How the results depend on the processing

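The 4 members at least 4-fold higher in maturing cells became 2 after quantile normalization, 2 after lowess, 10 after scaling to the hybridisation controls, 13 with the floor at percentile 25, 1 with the floor at percentile 75, 13 at a 2-fold threshold and 0 at 8-fold. The 1 member higher in primitive cells became 0 after scaling to the hybridisation controls, 2 and 0 with the floor at percentiles 25 and 75, 0 without the probe sets named as able to bind several transcripts, 3 at 2-fold and 0 at 8-fold. The 8 further pathway genes higher in maturing cells became 20 after scaling to the hybridisation controls, 3 with the floor at percentile 75, 5 with the median of probe sets, 19 at 2-fold and 0 at 8-fold. The 3 higher in primitive cells became 1, after scaling to the hybridisation controls, 7 and 0 with the floor at percentiles 25 and 75, 11 at 2-fold and 0 at 8-fold. The floor sets how large a bound can be, and fewer genes are measured above a higher one. Shares of all measured genes were counted in the reported setting only, at 2-fold and 4-fold. The other counts here stand without such a share, and scaling to the hybridisation controls moved the median of all measured genes to -0.74. The members' median stayed below 0 in all the settings listed, between -0.26 over members that passed the floor on both arrays and -1.33 after scaling to the hybridisation controls. The median for long proteins ran from -0.78 with the floor at percentile 75 to -1.86 after scaling to the hybridisation controls, and was -1.31 with classes from 1000 residues. The median for short proteins ran from -0.81 to 0.44. Among single members, scaling to the hybridisation controls turned the sign of 8 of 36, the median of probe sets 3 of 38, dropping probe sets named as able to bind several transcripts 3 of 27 and a median ratio of 0 1 of 38, none of them 4-fold apart in the reported setting. For Cdc20 (-2.54) and Kif2c (-0.91), scaling to the hybridisation controls made another probe set the brightest. Bub1 was not counted as turned because its reported ratio of 0.01 was so close to 0. It went to -0.08 when ratios were centred on a median of 0. No paired analysis was possible because each population has 1 array.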
